A study of Mus musculus with 24 samples.

Results

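Imprinted genes, which are expressed mainly from the chromosome inherited from a single parent, were followed through the lists of H3K4me3 and H3K27me3 peaks of gonadal supporting cells. The set consists of 34 well-known imprinted genes given by name, and 33 of them had a gene record in GENCODE M1, among 37273 annotated genes on chromosomes 1 to 19, X and Y. The remaining gene, Kcnq1ot1, was placed on the same genome (mm9, NCBIM37) through its RefSeq promoter. The 34 genes lie in 15 loci.

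Chromatin came from 4 FACS-purified populations of mouse embryos of C57BL/6 x CD1 background. XY and XX progenitor cells were taken at E10.5 from gonads carrying the SF1-eGFP reporter, which marks somatic cells before sex determination. Sertoli cells, the supporting cells of the testis, were taken at E13.5 with Sox9-CFP, and pregranulosa cells, their ovarian counterparts, at E13.5 with a CFP reporter driven by a mutated form of the TESCO enhancer of Sox9 (TESMS). Each replicate pooled cells of several embryos, and H3, H3K4me3 and H3K27me3 were immunoprecipitated in 2 replicates per population, which gave 24 samples and 8 lists of peaks, since H3 served as the control.

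In an imprinted locus, DNA methylation laid down in the egg or the sperm marks a differentially methylated region (DMR), and after fertilization ZFP57 and its partners hold that methylation on the marked allele. Most germline DMRs are methylated on the maternal allele and coincide with a promoter that is then used on the paternal allele, and several of these promoters drive long non-coding RNAs such as Kcnq1ot1 and Airn that silence neighbouring genes in cis. H3K4me3 is laid down at active or poised promoters and H3K27me3 by the Polycomb Repressive Complex. In such a locus both marks in a pool of cells may therefore lie on different alleles, or in different cells, and the lists do not separate the parental chromosomes.

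A promoter is here the window of 2 kb on each side of the start of the gene record (4001 bp), and it carries a mark where at least 1 bp is covered by a peak region. Each mark and population has 1 list of peaks, so differences between lists have no replicate spread and no test; the study's methods describe peak calling on each replicate, the series text describes both replicates used together, and the headers name joined replicates for the progenitor lists and not for the Sertoli lists. Values are bases covered or counts. The H3K4me3 lists rest on 10162534 tags (XY progenitor), 49254553 (XX progenitor) and 31104760 (Sertoli), and the H3K27me3 lists on 6470151, 33185400 and 44446456; the depth of the pregranulosa lists is unknown. H3K27me3 regions covered 89.7, 82.2, 156 and 130 Mb of the autosomes in XY progenitor, XX progenitor, Sertoli and pregranulosa lists, and 1.19, 61.6, 1.95 and 43.1 Mb of the X chromosome, on which no member lies. Among the markers examined, all 5 of the supporting lineage carried H3K4me3 in every population, and H3K27me3 lay on 2, 2, 0 and 3 of the 3 Sertoli markers and on 4, 4, 4 and 2 of the 4 pregranulosa markers (XY progenitor, XX progenitor, Sertoli, pregranulosa). Of the germ cell markers Ddx4, Dazl and Pou5f1, H3K4me3 was called at Dazl in every population and at Pou5f1 in Sertoli cells, of the 3 endothelial markers at Cdh5 in pregranulosa cells, and of the 3 Leydig markers at 1, 3, 2 and 2. The part of other cell types in the results was not tested.

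More of the promoters at maternally methylated germline DMRs than of the other members held many copies of a short sequence known for ZFP57. The hexamer TGCCGC, known as the core of the ZFP57 site when its CpG is methylated, was searched on both strands (GCGGCA on the other) in the promoter windows. At least 5 matches were found in 7 of the 14 germline DMR promoters, in 0 of the other 20 and in 2.11% of the windows of 21418 autosomal protein-coding genes; at least 1 match was found in 12 of 14, 16 of 20 and 52.2%. Where the start that lies at the DMR was used for Mest, Snrpn and Usp29, whose gene records start elsewhere, those windows held 12, 10 and 7 matches and the count became 10 of 14, with a median of 6. Peg3 and Usp29 share that window, as do Peg10 and Sgce, so the 14 promoters are 12 separate windows. The hexamer was chosen for its known link to ZFP57, which holds methylation at germline DMRs. The comparison of the groups was therefore no independent test. The plan was to count windows with at least 1 match, and the limit of 5 was not part of it. A match is a string of letters and not a bound site.

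The stretches of 250 bp richest in the hexamer are shown for 7 of the 14 germline DMR promoters, because the states described below divide them. These are not the 7 with at least 5 matches. Kcnq1ot1, with 3 matches in its window, is shown, and Impact, with 5, is not. Matches are in capitals, and the letters are mm9 read 5′ to 3′ along the strand of the gene. Kcnq1ot1 (chr7:150481488-150481737, minus strand, inside Kcnq1 and outside its exons), Peg3 (chr7:6682703-6682952, minus, outside exons), Plagl1 (chr10:12810842-12811091, plus, outside exons), Airn (chr17:12935030-12935279, plus, within Airn and Igf2r and outside exons) and Nnat (chr2:157385979-157386228, plus, overlapping an Nnat exon within Blcap) lay under H3K4me3 over all 250 bp and under no H3K27me3 in all 4 populations.
Kcnq1ot1: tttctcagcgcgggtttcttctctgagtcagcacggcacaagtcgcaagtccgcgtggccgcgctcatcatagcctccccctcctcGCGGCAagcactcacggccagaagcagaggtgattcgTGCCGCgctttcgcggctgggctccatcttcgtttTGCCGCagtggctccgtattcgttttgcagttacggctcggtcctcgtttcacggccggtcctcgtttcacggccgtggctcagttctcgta
Peg3: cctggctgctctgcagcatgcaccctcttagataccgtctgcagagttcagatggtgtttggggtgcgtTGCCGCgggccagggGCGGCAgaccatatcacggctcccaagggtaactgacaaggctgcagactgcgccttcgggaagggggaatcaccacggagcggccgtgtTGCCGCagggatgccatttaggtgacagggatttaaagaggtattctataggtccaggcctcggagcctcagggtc
Plagl1: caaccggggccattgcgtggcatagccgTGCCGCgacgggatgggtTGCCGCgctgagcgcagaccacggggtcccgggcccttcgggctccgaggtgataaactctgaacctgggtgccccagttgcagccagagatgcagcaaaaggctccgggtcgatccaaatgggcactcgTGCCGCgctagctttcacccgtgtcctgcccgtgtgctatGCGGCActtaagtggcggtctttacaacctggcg
Airn: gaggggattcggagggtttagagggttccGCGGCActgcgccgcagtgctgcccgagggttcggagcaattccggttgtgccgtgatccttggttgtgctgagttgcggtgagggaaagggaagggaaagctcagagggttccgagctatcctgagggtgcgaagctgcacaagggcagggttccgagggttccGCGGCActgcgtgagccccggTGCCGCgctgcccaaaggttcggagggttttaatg
Nnat: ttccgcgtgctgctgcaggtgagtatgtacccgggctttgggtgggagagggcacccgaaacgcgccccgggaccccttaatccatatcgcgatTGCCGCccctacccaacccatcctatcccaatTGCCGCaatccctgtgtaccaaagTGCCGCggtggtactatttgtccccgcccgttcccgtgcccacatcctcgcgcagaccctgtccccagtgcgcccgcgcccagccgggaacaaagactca

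The corresponding stretches of Nespas (chr2:174121383-174121632, minus strand, overlapping a Gnas exon, with 2 of its 5 matches overlapping each other) and Nap1l5 (chr6:58856851-58857100, minus, overlapping a Nap1l5 exon within Herc3) were the exceptions. Both were fully under H3K4me3 in the 4 populations, Nap1l5 was also fully under H3K27me3 in each, and Nespas was under H3K27me3 in XX progenitor, Sertoli and pregranulosa cells and not in XY progenitor cells.
Nespas: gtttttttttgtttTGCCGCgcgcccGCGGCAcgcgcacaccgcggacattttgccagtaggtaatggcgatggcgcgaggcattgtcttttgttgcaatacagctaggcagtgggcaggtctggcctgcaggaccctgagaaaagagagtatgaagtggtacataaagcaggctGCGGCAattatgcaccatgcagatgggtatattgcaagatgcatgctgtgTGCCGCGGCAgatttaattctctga
Nap1l5: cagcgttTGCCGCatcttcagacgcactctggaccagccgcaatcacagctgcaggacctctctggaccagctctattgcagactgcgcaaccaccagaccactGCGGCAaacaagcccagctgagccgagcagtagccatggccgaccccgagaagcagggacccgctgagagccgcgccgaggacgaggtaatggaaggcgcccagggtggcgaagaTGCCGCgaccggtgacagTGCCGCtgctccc

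The promoters at germline DMRs did not stand apart from the other members by base composition. In the 1 kb centred on the start, the ratio of observed to expected CpG had a median of 0.58 in the 14 and 0.63 in the other 20. It was 0.56 in autosomal protein-coding genes. With the starts at the DMR for Mest, Snrpn and Usp29, the median of the 14 was 0.63. The median ratio was 0.63 in the 12 members with H3K27me3 in all 4 populations and 0.58 in the 18 with H3K27me3 in none. The 18 include the gene-record windows of Snrpn and Usp29, which lie away from the DMR. Members with and without H3K27me3 thus had similar CpG content by this measure.

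H3K4me3 was called at nearly every imprinted promoter. It was present at 30, 29, 27 and 30 of 33 members in the XY progenitor, XX progenitor, Sertoli and pregranulosa lists, where 64.8, 66.7, 65.5 and 67.0% of autosomal protein-coding promoters carried it. H3K27me3 was present at 13, 13, 16 and 12 members, or 39.4, 39.4, 48.5 and 36.4%, against 23.6, 22.8, 24.2 and 22.1% of autosomal protein-coding promoters. Both marks were present at 13, 13, 13 and 12 members, against 20.9, 21.4, 19.2 and 19.6%.

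H3K27me3 was called at a smaller share of the genes with a germline DMR promoter than of the other members. The groups were set by gene, and internal starts such as Grb10-001 and Gnas-015 were not sorted by DMR. Grb10-001 carried H3K27me3 in all 4 lists and Gnas-015 in all but the Sertoli list (below). At gene-record starts H3K27me3 was called at 2, 2, 3 and 2 of the 13 genes of the first group that have a record (15.4, 15.4, 23.1 and 15.4%). It was called at 11, 11, 13 and 10 of the other 20 (55, 55, 65 and 50%). The first shares lie near or below those of autosomal promoters and the second above them. In the first group the gene records of Mest, Snrpn and Usp29 start away from the DMR. The third Sertoli call is the Mest gene record, whereas H3K27me3 covered 17 bp around the Mest-001 start at the DMR. With each H3K27me3 list reduced to its widest autosomal regions up to 82.2 Mb, the autosomal bases of the XX progenitor list, the counts were 1, 2, 0 and 0 of 13 and 11, 11, 12 and 9 of 20. This reduction drops the narrowest regions first, and the Sertoli regions at Nap1l5, Mest and Nespas measured 5.00, 6.38 and 11.4 kb. Its counts therefore cannot separate a difference between the groups from a difference in region width. By the allele that is mainly expressed, H3K27me3 was called at 6, 6, 7 and 6 of the 20 paternally expressed and at 6, 6, 8 and 5 of the 12 maternally expressed members, and germline DMR promoters are all in the first of these groups.

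**Figure D1:**
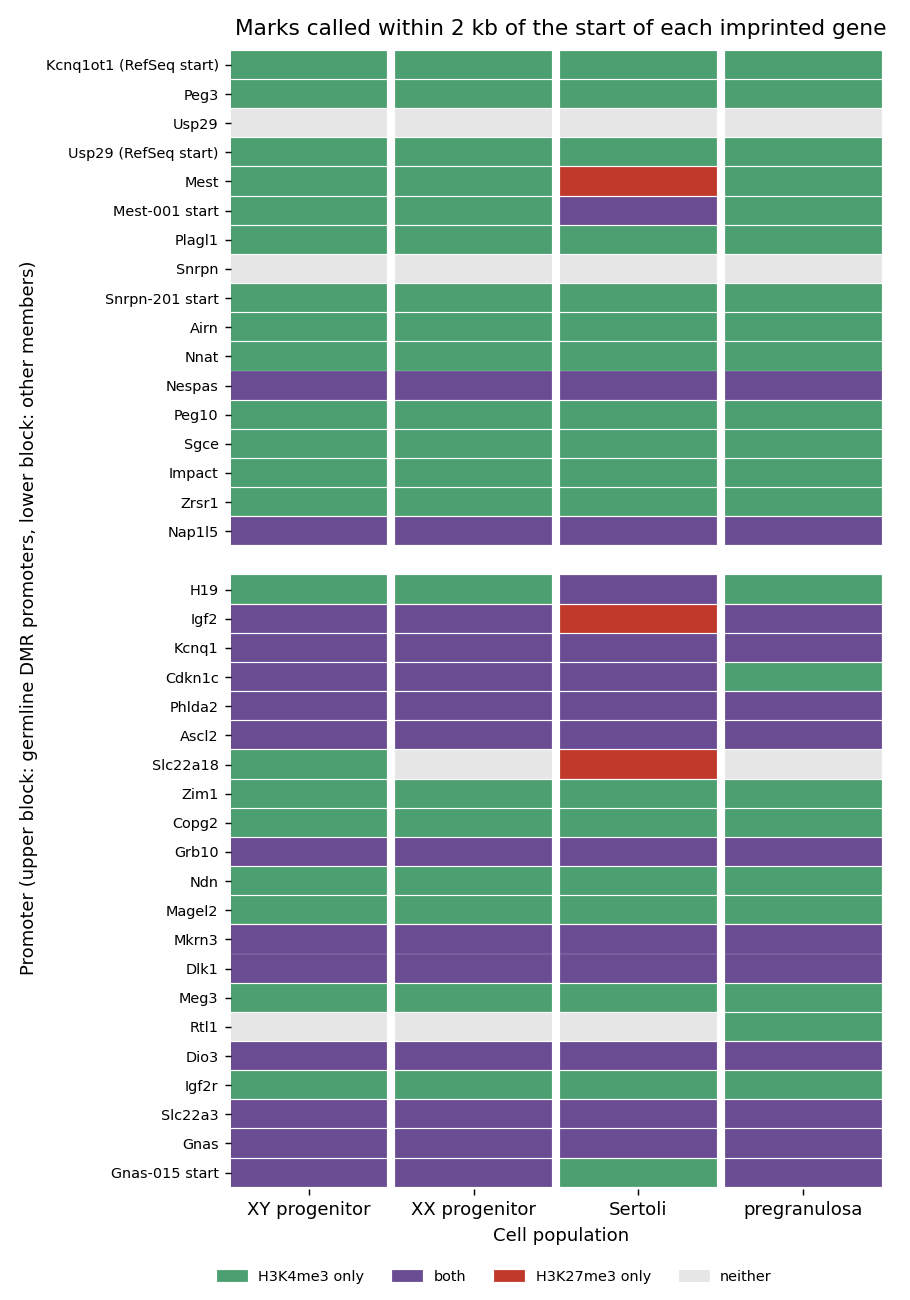
Promoter state of each imprinted gene (rows) in the 4 populations (columns), as marks called within 2 kb of the start. Upper rows are genes with a promoter at a maternally methylated germline DMR and lower rows the other members. Further starts of Mest, Snrpn, Usp29 and Gnas have rows of their own. Most upper rows are H3K4me3 only, while 11 of the 33 gene-record rows carry both marks in all 4 populations.

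**Figure D2:**
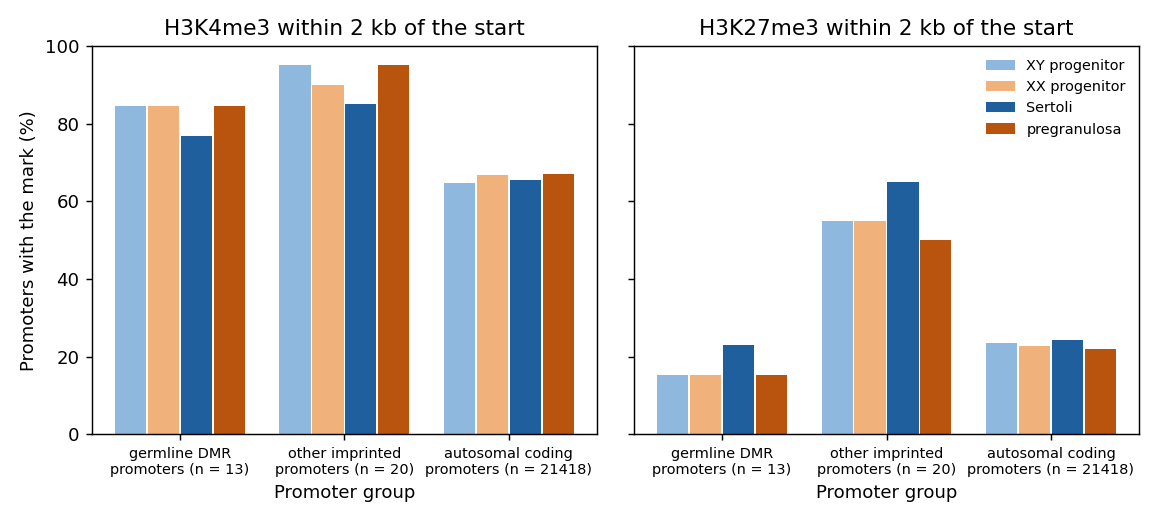
Share of promoters (percent, vertical axis) with H3K4me3 (left) or H3K27me3 (right) in germline DMR promoters (n = 13), other imprinted promoters (n = 20) and autosomal protein-coding promoters (n = 21418), with a bar for each population. Gene-record starts are used, and those of Mest, Snrpn and Usp29 lie away from the DMR. H3K27me3 stands at 15.4 to 23.1% of the first group and at 50 to 65% of the second. There are no error bars because each bar rests on 1 list.

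The state of a promoter was mostly shared by the 4 populations. Of 33 members, 14 carried H3K4me3 alone in all 4 (42.4%, against 38.2% of autosomal protein-coding promoters), 11 carried both marks in all 4 (33.3% against 14.0%), 2 carried neither (6.06% against 26.3%) and 6 differed in some population (18.2% against 20.7%). No member carried H3K27me3 alone in all 4. The 6 that differed were H19, Igf2, Cdkn1c, Slc22a18, Mest and Rtl1.

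H3K4me3 without H3K27me3 was called at 11, 11, 10 and 12 of the 20 paternally expressed members (55, 55, 50 and 60%) and at 6, 5, 4 and 6 of the 12 maternally expressed ones, against 43.9, 45.3, 46.3 and 47.5% of autosomal protein-coding promoters. Around the Kcnq1ot1 start (chr7, position 150482452), the RNA that silences the Kcnq1 domain, H3K4me3 covered 2572 bp of the window in XY progenitor cells, and the region it belonged to measured 3495 bp there, 4688 bp in the XX list of that stage, and 3668 and 11088 bp in Sertoli and pregranulosa cells. The pregranulosa region was the widest of the 4, and no H3K27me3 was called in the window in any of them. Airn, the antisense RNA that silences Igf2r in cis, had 2115, 3824, 2269 and 3704 bp of its window under H3K4me3 (values of the 4 lists are given in the order XY progenitor, XX progenitor, Sertoli, pregranulosa here and below). Plagl1, a zinc-finger transcription factor that restrains growth, had 2490, 3808, 2968 and 3640 bp. For both genes cover was higher in the XX lists than in the XY list of the same stage. The same held for 85.1% (XX over XY progenitor) and 65.4% (pregranulosa over Sertoli) of autosomal protein-coding promoters with the mark in either list.

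Peg3, a zinc-finger gene of the paternal allele, had its whole window under H3K4me3 in all 4 populations, in regions of 9146, 9351, 6224 and 9547 bp. Usp29 carried neither mark at its gene record, which starts 231 kb from its RefSeq start, whereas the RefSeq start lies 164 bp from that of Peg3 on the opposite strand and inside the same H3K4me3 region. Zim1, the maternally expressed neighbour, also carried H3K4me3 alone, over 2704, 2858, 2055 and 2765 bp. Snrpn showed the same dependence on the start that was used. The gene record, 135 kb upstream of the start at the DMR, carried neither mark, and the start at chr7 position 67150042 carried H3K4me3 over 2256, 2453, 2468 and 2503 bp with no H3K27me3. Of its neighbours, Ndn and Magel2, intronless genes of the MAGE family, carried H3K4me3 alone, and Mkrn3, a makorin ring-finger gene, carried both marks. H3K4me3 cover at Ndn was the lowest among the 14 members with H3K4me3 alone, at 1258, 2413, 1511 and 1793 bp.

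The retrotransposon-derived Peg10 and the sarcoglycan gene Sgce start 102 bp apart on opposite strands, and their shared promoter was covered by H3K4me3 over 3747, 4001, 4001 and 4001 bp of the Peg10 window. Nnat, which encodes a membrane proteolipid of developing tissue, had 1896, 3846, 4001 and 4001 bp under H3K4me3. The value in XY progenitor cells was the lowest of the 4 at both promoters. Impact had 1970, 2675, 2409 and 3074 bp and Zrsr1, a retrocopy of a splicing factor gene, had 3122, 3946, 3448 and 3878 bp. Meg3, the maternally expressed long non-coding RNA of the Dlk1-Dio3 locus, had 3438, 3793, 2842 and 3320 bp. Igf2r, the receptor that removes IGF2, had 2706, 3142, 2923 and 3187 bp, and Copg2, a coatomer subunit gene, 2358, 2628, 2628 and 2214 bp. H3K27me3 was not called at any of these promoters in any population.

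H3K4me3 cover was higher in XX than in XY progenitor cells in 93.3% of the 30 members with the mark in either list, with a median difference of 518 bp. The same held for 85.1% of autosomal protein-coding promoters, with a median of 539 bp, and the XX list rests on 49254553 tags against 10162534, so the difference at the members was of the size seen over all promoters.

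The 11 members with both marks in all 4 populations were Kcnq1, Phlda2, Ascl2, Grb10, Mkrn3, Dlk1, Dio3, Slc22a3, Gnas, Nespas and Nap1l5. Of the 11, 7 kept the state in every list with equal autosomal bases, and Mkrn3, Slc22a3, Nespas and Nap1l5 did not; with as many regions as in the shortest list Mkrn3 and Nap1l5 did not. Bases of the window under both marks at once had medians of 1651, 3005, 1913 and 2206 bp. In the lists with a header, H3K27me3 peaks were sought with a size of 5000 bp, more than the 4001 bp window. The overlap of regions therefore cannot separate marks that coincide from marks that adjoin. At Mkrn3 the overlap was small in 3 lists, at 149, 151, 1594 and 33 bp. H3K4me3 at these promoters ranged from 1001 bp (Kcnq1 and Slc22a3) to 3235 bp (Nespas) in XY progenitor cells and from 1259 bp (Nap1l5) to 3760 bp (Nespas) in Sertoli cells.

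H3K27me3 regions over these 11 promoters were wider in Sertoli cells than in the other lists. The median width of the region was 8.16, 10.3, 19.1 and 12.9 kb, against 9.40, 10.2, 12.8 and 11.4 kb at the 2997 autosomal protein-coding promoters with both marks in all 4. The widest region was the Sertoli one at 9 of the 11 (81.8%), against 53.8% of those 2997. Phlda2, a placental growth regulator, lay in a region of 7.53, 8.86, 91.8 and 12.6 kb, and Slc22a3, an organic cation transporter, in one of 8.04, 10.1, 30.3 and 12.6 kb. The exceptions were Mkrn3 (7.73, 8.05, 7.79 and 5.00 kb) and Nap1l5, a nucleosome assembly protein-like gene (5.00, 5.00, 5.00 and 7.73 kb), where 5.00 kb is the smallest peak called.

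Grb10, an adaptor that dampens insulin signalling, is used from the maternal allele in most tissues and from the paternal allele in neurons. Its gene-record start carried H3K4me3 over 2675, 3085, 2703 and 2206 bp and H3K27me3 over the whole window, inside regions of 34.4, 35.6, 37.3 and 31.5 kb. The downstream start Grb10-001 lay under H3K27me3 in full in all 4 populations, with 0, 2038, 1966 and 2211 bp of H3K4me3. That start therefore carried H3K27me3 alone in XY progenitor cells and both marks elsewhere.

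The Gnas locus encodes the stimulatory G protein alpha subunit and several transcripts from alternative first exons. The most upstream start (Gnas-007) carried H3K27me3 over 3680, 4001, 4001 and 4001 bp with 2750, 3031, 2537 and 2537 bp of H3K4me3. Nespas, the antisense RNA at the germline DMR, carried H3K27me3 over 1073, 3305, 1913 and 2590 bp with 3235, 4001, 3760 and 3890 bp of H3K4me3. Another start, Gnas-015 at chr2 position 174153071, differed from both. It had 3728, 4001, 0 and 4001 bp under H3K27me3, and 3065, 3158, 2988 and 3193 bp under H3K4me3. The Sertoli list was thus the only one of the 4 without H3K27me3 there. The H3K27me3 region measured 5001 bp in both progenitor lists, the smallest peak called, and 6268 bp in the pregranulosa list.

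H19 and Igf2 (chr7:149761434-149764048 and chr7:149836673-149852721, both on the minus strand) share enhancers, and the control region upstream of H19 binds CTCF on the maternal allele only. The H19 window had 3104, 3391, 1538 and 3413 bp under H3K4me3. It had 0, 0, 4001 and 0 bp under H3K27me3. Only in the Sertoli list was the H19 promoter under H3K27me3, inside a region of 32.4 kb, and H3K4me3 cover was lowest in the same list; in the other lists the nearest H3K27me3 region lay 73.1, 71.3 and 71.4 kb away.

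The 10 kb upstream of H19 held 3 matches to a 14-letter CTCF core in which positions 6 and 9 may be any base, all on the strand of H19. None of the 21418 autosomal protein-coding genes had as many in the 10 kb upstream. At least 1 match lay in the 4001 bp window of 0.135% of them and of no member. The core is the one known from the H19 control region, so matches upstream of H19 were given in advance. The comparison with other genes was therefore no test of H19. The matches are in capitals with 10 bases on each side, read along the minus strand of mm9, and no gene is annotated over them. They lie 2166, 2621 and 3891 bp upstream of the start, at chr7:149766214-149766227, chr7:149766669-149766682 and chr7:149767939-149767952.
H19 upstream match 1: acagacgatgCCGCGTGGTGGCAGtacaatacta
H19 upstream match 2: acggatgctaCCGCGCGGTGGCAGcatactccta
H19 upstream match 3: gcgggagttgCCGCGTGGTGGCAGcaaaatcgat

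The span from the first to the last match (1739 bp) was covered by H3K4me3 over 1008, 1690, 922 and 1739 bp. H3K27me3 covered 0, 0, 1739 and 0 bp of it. The H3K4me3 regions held matches 1 and 3 in XY progenitor cells, matches 1 and 2 in Sertoli cells and all 3 in XX progenitor and pregranulosa cells, and H3K27me3 held all 3 in Sertoli cells.

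Igf2, a fetal growth factor expressed from the paternal allele, was under H3K27me3 in every list, over 4001, 4001, 4001 and 3925 bp of the window at its most upstream start. H3K4me3 there was 474, 1853, 0 and 187 bp, which makes this start H3K27me3 only in Sertoli cells. The other annotated starts of Igf2 carried both marks in all 4 populations, with 4001, 4001, 2726 and 4001 bp of H3K4me3 at the start at position 149844709, in regions of 8734, 12041, 3318 and 8273 bp. H3K4me3 around this start was thus narrowest in Sertoli cells and present in all lists.

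Across the whole locus, members plus 10 kb on each side (111 kb), H3K27me3 covered 15.9, 17.5, 80.9 and 17.3% of bases. H3K4me3 covered 20008, 27630, 5943 and 20366 bp of it. In 3 lists H3K27me3 was a single region over Igf2, and in Sertoli cells 6 regions ran from beyond H19 to Igf2. With equal autosomal bases the locus values were 15.9, 17.5, 50.9 and 17.3%, and H19 kept its state in all 4.

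**Figure D3:**
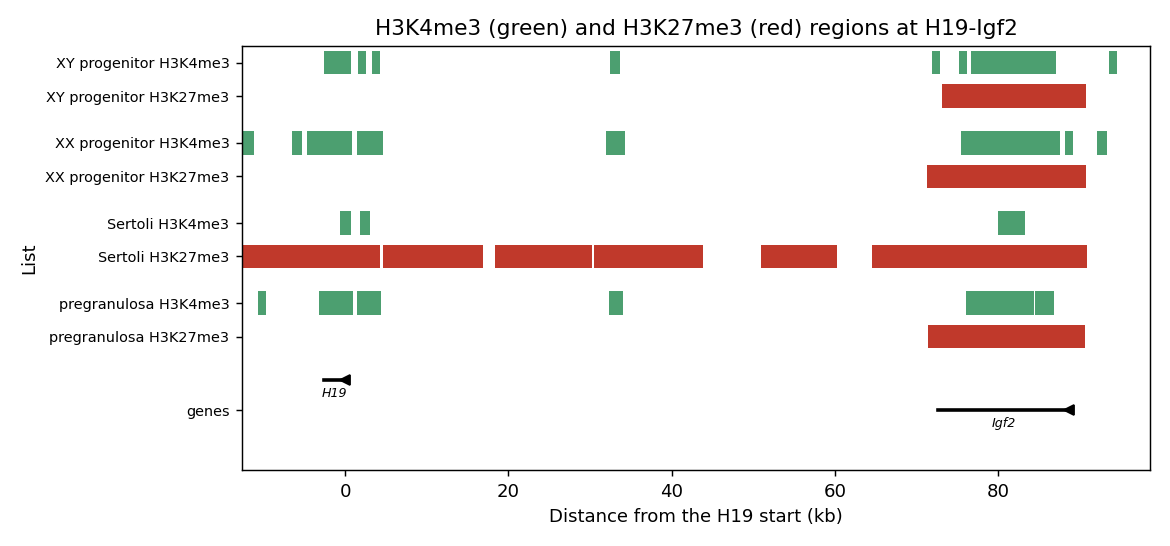
Regions of H3K4me3 (green) and H3K27me3 (red) across H19-Igf2 in the 4 populations, by distance from the H19 start in kb (horizontal axis; positive is upstream of H19), with gene bodies below and an arrowhead at each start. H3K27me3 covers 80.9% of the interval in Sertoli cells and 15.9 to 17.5% in the other lists, where it sits over Igf2.

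In the Kcnq1 domain the maternally expressed genes lie on both sides of the Kcnq1ot1 promoter. Kcnq1, a potassium channel subunit, had 1001, 2494, 1263 and 4001 bp of its window under H3K4me3. Ascl2, a trophoblast transcription factor, had 2456, 2878, 2564 and 2859 bp. Both windows were under H3K27me3 in full in all 4 populations, so these promoters carried both marks at each stage and in each sex.

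Cdkn1c (chr7:150644255-150646955, minus strand) encodes p57, an inhibitor of cyclin-dependent kinases expressed from the maternal allele. H3K27me3 covered 3094, 3870, 4001 and 0 bp of its window. H3K4me3 covered 2567, 3132, 2649 and 2806 bp. H3K4me3 was therefore present in all 4 lists, and H3K27me3 was missing from the pregranulosa list alone, where the nearest H3K27me3 region began 9.82 kb from the start.

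Slc22a18, an organic cation transporter-like gene next to Cdkn1c, had 1001, 0, 0 and 0 bp under H3K4me3 and 0, 0, 4001 and 0 bp under H3K27me3. It shared with Cdkn1c and Phlda2 a single H3K27me3 region of 91.8 kb in Sertoli cells. H3K27me3 covered 17.4, 12.4, 49.4 and 14.0% of the 556 kb locus, and 13.8, 12.4, 41.0 and 13.1% with equal autosomal bases. H3K27me3 regions left a gap around the Kcnq1ot1 promoter in every list, and the Sertoli gap was the narrowest. The nearest region lay 96.5, 183, 94.9 and 187 kb to the left of its start and 83.4, 140, 28.7 and 82.4 kb to the right.

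**Figure D4:**
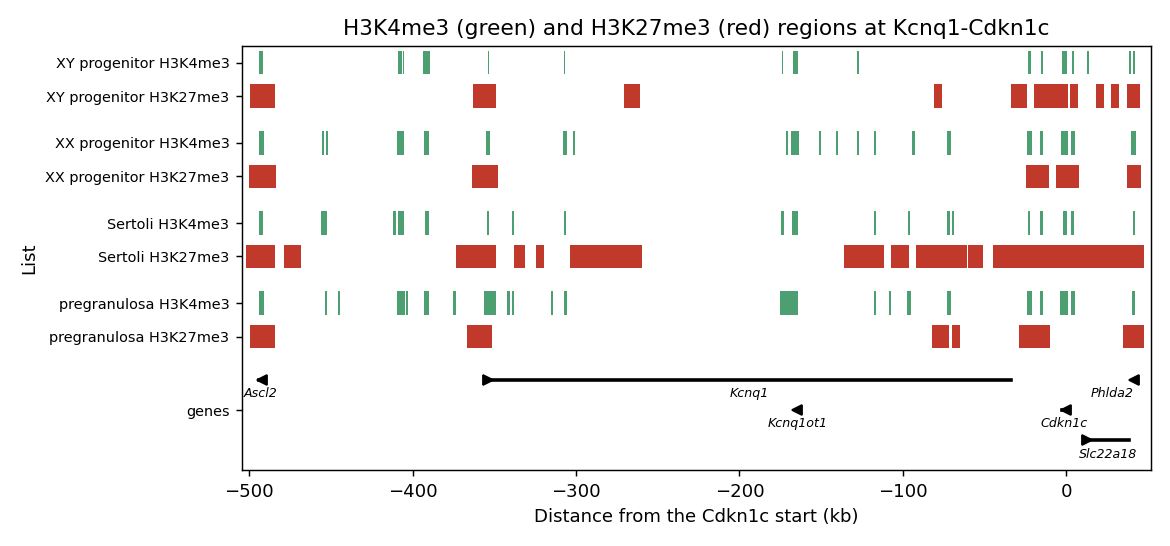
Regions of H3K4me3 (green) and H3K27me3 (red) across the 556 kb Kcnq1-Cdkn1c locus in the 4 populations, by distance from the Cdkn1c start in kb (horizontal axis), with gene bodies below and an arrowhead at each start. H3K27me3 covers 49.4% of the interval in Sertoli cells and 12.4 to 17.4% in the other lists, and no list has H3K27me3 at the Kcnq1ot1 start.

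Mest, a hydrolase-like gene of the paternal allele, has several starts with different states. The gene record, 14.5 kb upstream of the start at the DMR, had 1001, 2050, 0 and 510 bp of H3K4me3 and 0, 0, 4001 and 0 bp of H3K27me3. The Mest-001 start at the DMR had 3045, 4001, 3950 and 4001 bp of H3K4me3 and 0, 0, 17 and 0 bp of H3K27me3. Between them, at Mest-003, H3K27me3 covered the window in both E13.5 lists and in neither E10.5 list (0, 0, 4001 and 4001 bp). H3K27me3 at Mest thus lay upstream of the DMR start, at E13.5, and reached that window by 17 bp in Sertoli cells only.

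The Dlk1-Dio3 locus holds the paternally expressed Dlk1, a Notch ligand-like protein, Rtl1, a retrotransposon-like gene, and Dio3, a deiodinase that inactivates thyroid hormone. Dlk1 had 2665, 4001, 1986 and 2012 bp under H3K4me3 and 3972, 3960, 4001 and 4001 bp under H3K27me3. Dio3 had 2093, 3497, 2385 and 3902 bp under H3K4me3, with H3K27me3 over the full window in each list. Rtl1 carried neither mark except for 1596 bp of H3K4me3 in pregranulosa cells. H3K27me3 covered 6.05, 7.18, 30.6 and 14.6% of the 848 kb locus, in 5, 6, 18 and 11 regions, and the Meg3 start stayed 29.9 kb from the nearest of them in Sertoli cells. The locus values with equal autosomal bases were 6.05, 7.18, 23.0 and 9.63%.

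At Igf2r-Airn (460 kb) H3K27me3 covered 1.75, 2.20, 22.1 and 5.82% of bases. It formed a single region over Slc22a3 in each progenitor list, 11 regions in Sertoli cells and 4 in the pregranulosa list. The Sertoli regions came no closer than 74.7 kb to the Igf2r start and 75.6 kb to the Airn start, and with equal autosomal bases the values were 1.75, 2.20, 6.59 and 2.74%.

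Over the 15 loci together (5424 kb), H3K27me3 covered 4.43, 4.27, 15.2 and 5.97% of bases, against 3.63, 3.33, 6.31 and 5.25% of all autosomal bases. At least 20% of the locus was covered in 3, 3, 7 and 3 of the 15 loci, a limit set after the values were seen, where 5.00, 4.51, 10.9 and 8.45% of the autosomal tiles of 100 kb reached it. Gnas-Nespas (23.9, 27.8, 28.6 and 31.5%), Grb10 (26.3, 27.6, 27.8 and 24.6%) and Nap1l5 reached it in every list. H19-Igf2, Kcnq1-Cdkn1c, Dlk1-Dio3 and Igf2r-Airn reached it in Sertoli cells only. Nap1l5, a locus of 21.9 kb, did so through a single region in each list. The loci measure 21.9 to 2458 kb and the tiles 100 kb, so the shares are not like for like. With equal autosomal bases the share over all loci was 3.88, 4.27, 10.3 and 4.25%, and the limit was reached in 1, 3, 4 and 1 loci. The reduction keeps the widest regions of each list, so wide regions are retained by construction. The Sertoli H3K27me3 list was the deepest of the 3 with known depth, and the part of depth in the difference was not tested beyond this reduction.

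H3K27me3 was called somewhere in 8, 8, 11 and 9 of the 15 loci and H3K4me3 in all 15 in every list. Plagl1, Nnat, Impact and Zrsr1 had no H3K27me3 in any population, and Peg3-Usp29 (1.62%) and Peg10-Sgce (8.45%) had it in Sertoli cells only. H3K4me3 covered 4.28, 6.31, 3.58 and 5.27% of the loci, against 2.46, 3.52, 2.96 and 3.53% of autosomal bases.

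**Figure D5:**
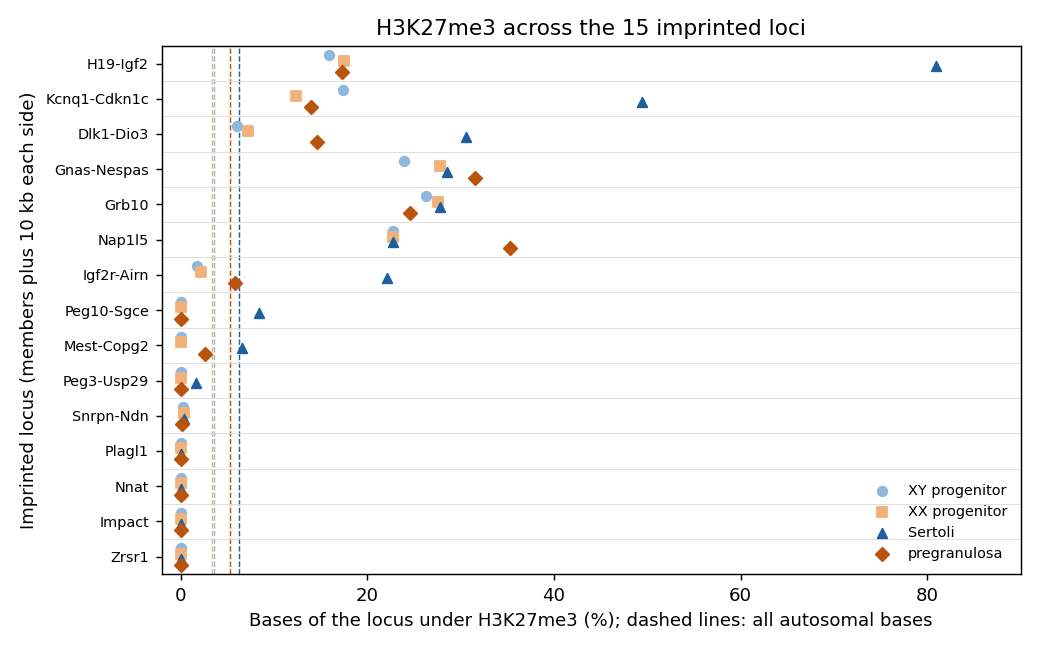
Share of bases under H3K27me3 (percent, horizontal axis) in each of the 15 imprinted loci (rows, ordered by the Sertoli value), with a point for each population and dashed lines at the share over all autosomal bases. H19-Igf2, Kcnq1-Cdkn1c, Dlk1-Dio3 and Igf2r-Airn stand at 80.9, 49.4, 30.6 and 22.1% in Sertoli cells, to the right of the other 3 lists.

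Between XY progenitor and Sertoli cells, 4 of 33 promoters differed in state, against 15.3% of autosomal protein-coding promoters. H3K27me3 was called in the Sertoli list only at H19, Slc22a18 and Mest (5.87% of autosomal promoters), and H3K4me3 in the XY progenitor list only at Igf2, Slc22a18 and Mest (2.10%). At other annotated starts Igf2 and Mest carried H3K4me3 in Sertoli cells too. No member had H3K27me3 in the progenitor list alone (5.29% of autosomal promoters) or H3K4me3 in the Sertoli list alone (2.80%). With equal autosomal bases, and with as many regions as in the shortest list, Mest had no H3K27me3 in Sertoli cells, while H19 and Slc22a18 kept their state.

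Between XX progenitor and pregranulosa cells 2 of 33 differed, against 2243 of the 21418 autosomal protein-coding promoters. H3K4me3 was called at Rtl1 in the pregranulosa list only (1.78% of autosomal promoters) and H3K27me3 at Cdkn1c in the progenitor list only (4.22%). The XY and XX progenitor lists differed at 1 of 33 promoters, Slc22a18, where H3K4me3 was called in XY cells (7.53% of autosomal promoters differed). With equal autosomal bases 6 of 33 members differed between XY progenitor and Sertoli cells and 7 of 33 between XX progenitor and pregranulosa cells; whether the sexes differ in this was not tested.

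Sertoli and pregranulosa cells differed at 6 of 33 promoters, against 11.2%. H3K4me3 was present in pregranulosa and not in Sertoli cells at Igf2, Mest and Rtl1 (2.57%). The pregranulosa cover was 187 bp at Igf2 and 510 bp at Mest, and both genes carried H3K4me3 in Sertoli cells at other annotated starts. H3K27me3 was present in Sertoli and not in pregranulosa cells at H19, Cdkn1c, Slc22a18 and Mest (5.11%). Every difference had more H3K27me3 or less H3K4me3 on the Sertoli side at these gene-record starts, and Gnas-015, which lacked H3K27me3 in Sertoli cells, went the other way.

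Of 44 further imprinted genes 40 matched the annotation, and both marks were called at 12, 11, 10 and 12 of them, H3K4me3 at 29, 31, 31 and 32 and H3K27me3 at 14, 12, 14 and 13, where autosomal protein-coding promoters carried both marks in 19.2 to 21.4%, H3K4me3 in 64.8 to 67.0% and H3K27me3 in 22.1 to 24.2%. Begain, Calcr, Htr2a, Klf14, Osbpl5 and Rasgrf1 carried both marks in all 4 populations; Osbpl5, in the cluster of Kcnq1, had 1001, 1728, 1601 and 2009 bp of H3K4me3 under full H3K27me3. All 14 factors that set or keep imprints matched, and both marks were called at 3, 3, 2 and 0 of them, with H3K27me3 at 4, 3, 3 and 0, against the same shares. Dnmt3l, the cofactor of de novo methylation in germ cells, had 3362, 3304, 4001 and 0 bp of H3K27me3, and Dppa3, which protects the maternal genome after fertilization, had 4001, 4001, 4001 and 0 bp. Dnmt3b carried H3K27me3 in both progenitor lists and in neither E13.5 list (3784, 3482, 0 and 0 bp), and Dnmt3a carried it in XY progenitor cells only (3956, 0, 0 and 0 bp).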

How the data were processed

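ChIP-seq of H3, H3K4me3 and H3K27me3 was analysed from 8 lists of peaks, 1 per mark and population, from 2 replicates each (24 samples). Per the labels and the study's methods, the authors trimmed reads with Trim Galore, aligned them to mm9 with Bowtie, handled alignments with SAMtools and called peaks with HOMER over H3; versions are not given in the sources used here. Drosophila chromatin was added as carrier. The score column that the authors deposited is constant over all peaks; positions alone were used, and a list records presence and not level. Per the file headers of 6 lists, H3K27me3 peaks were sought with a size of 5000 bp, H3K4me3 peaks with 1000 bp, and each exceeded the input 4-fold; the 2 pregranulosa lists have no header and their peaks were already joined. The study's methods describe peak calling on each replicate and the series text both replicates used together; the headers name joined replicates for the progenitor lists and not for the Sertoli lists, so a Sertoli list may rest on fewer replicates.

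Peaks that overlap or touch were joined into regions. Covered bases were counted in windows of 2 kb on each side of the start of GENCODE M1 gene records and over each locus with 10 kb added on each side, printed positions counting from 1. All 39 RefSeq promoters (GRCm38.p6) of the 26 members with an entry matched mm9 exactly and once. The named genes were all 34 members, every annotated start of Gnas, Nespas, Grb10, Mest, Plagl1, Peg3, Igf2, Snrpn and Kcnq1 (starts within 200 bp merged), and at most 6 genes from each further list, those with both marks in most populations first. Members, lists and groups were chosen with earlier results of these data known. No test was run, because each condition has 1 list and no spread between replicates. The alternatives required 500 bp of cover, used 1 kb on each side or any annotated start, kept the widest 75% of regions, cut lists to the shortest list (37847 regions for H3K4me3, 9309 for H3K27me3), joined peaks within 1 kb, counted shared windows once or changed the flank of the loci; RefSeq starts, equal bases (all or autosomal) and the share of bases were added after the data were seen. Counting of bases and states was tested on simulated data. Python 3.11.15, NumPy 2.4.6, matplotlib 3.10.9 and samtools 1.23.1 were used.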

Additional observations from a re-analysis of the deposited data

Results flagged for a closer look

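In 3 of 33 members the bases of the promoter window under a mark differed in opposite directions from progenitor to E13.5 in the 2 sexes, by at least 500 bp in each; 4.27% of autosomal protein-coding promoters did so. The difference was not tested, since each value is the difference of 2 lists. For H3K27me3 at Cdkn1c the difference was 907 bp (Sertoli minus XY progenitor) and -3870 bp (pregranulosa minus XX progenitor). For H3K27me3 at Nespas it was 840 and -715 bp. For H3K4me3 at Slc22a3 it was 638 and -1496 bp; both progenitor lists differ in depth, and the XY values of Slc22a3 start from the smallest peak called (1001 bp).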

How the results depend on the processing

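No paired analysis was possible because each mark and population has 1 list of peaks and no test was run; for the same reason leaving out each replicate in turn could not be run. Of 248 values recomputed for 32 results, 218 stayed within 1.5 times the reported value and 30 did not. Joining peaks within 1 kb moved 0 members, requiring 500 bp moved 1 and using 1 kb on each side moved 2. Any annotated start and the shortest list moved 3 each, and RefSeq starts moved 4. The widest 75% of regions and equal autosomal bases moved 5 each, and equal bases moved 9. Equal bases and equal autosomal bases were chosen after seeing the data.

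With equal bases over all chromosomes, members with H3K27me3, and those with both marks, went from 13 to 5 in XX progenitor and from 12 to 6 in pregranulosa cells. State differences went from 4 to 7 (XY progenitor and Sertoli), 2 to 4 (XX progenitor and pregranulosa) and 1 to 9 (XY and XX progenitor). Loci with H3K27me3 went from 8 to 4 (XX progenitor), 11 to 6 (Sertoli) and 9 to 4 (pregranulosa), and the share of locus bases to 2.26% in XX progenitor and 3.17% in pregranulosa cells. Loci at least 20% covered went from 3 to 1 in XX progenitor, 7 to 4 in Sertoli and 3 to 1 in pregranulosa cells. By construction this setting spends bases on the X chromosome, where the XX lists hold 61.6 and 43.1 Mb. With equal autosomal bases the XX progenitor count stayed at 13 members, state differences went from 2 to 7 (XX progenitor and pregranulosa) and 1 to 2 (XY and XX progenitor), loci with H3K27me3 in Sertoli cells from 11 to 6, and loci at least 20% covered to 1 (XY progenitor), 4 (Sertoli) and 1 (pregranulosa). The state differences of XX progenitor and pregranulosa cells were 4, and those of the progenitors 2, with 1 kb on each side and with the widest 75% of regions, and the latter also 2 with 500 bp required. Loci at least 20% covered fell to 0 in XY progenitor, XX progenitor and pregranulosa cells with a flank of 50 kb, and to 1 in XY progenitor cells with the widest 75%. The cause was not tested for the others. Of 176 values for 24 further results, 152 stayed within 1.5 times and 24 did not; germline DMR promoters with H3K27me3 in Sertoli cells went from 3 to 1 with the shortest list and to 0 with equal bases, all or autosomal. The precision that depth gives cannot be stated for the pregranulosa lists, whose depth is unknown.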
